A study of Mus musculus with 24 samples.

Results

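The 8 genes described here are targets of interferon-γ (IFN-γ) signalling: the GTPase genes Gbp2, Gbp3, Igtp, Irgm1 and Iigp1, the enzyme gene Ido1, the feedback inhibitor Socs1 and the transcription factor Irf1. They were taken by gene symbol, and 20 of the 45281 probes on the array carried 1 of these symbols, out of 19057 genes with a probe. They were measured in the proximal colon of 24 male 3-month-old mice of the 129/SvEv IL-10 KO strain, with 1 Illumina MouseWG-6 array per mouse and 6 mice per diet group (HH, HL, LH or LL). The first letter of a group is the vitamin D3 content of the mother's diet through pregnancy and lactation and the second that of the pup's diet after weaning, with H for 5000 and L for 25 IU per kg diet. All mice lacked IL-10 in every cell and develop colitis spontaneously, and no wild-type mouse was on the arrays. A mouse is named by its group and its mother's label, and 4 labels occur in a mouse on each post-weaning diet (10 and 10B in HH and HL, 13 and 3B in LH and LL).

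IFN-γ is a cytokine of T cells and NK cells that signals through the IFN-γ receptor and its JAK kinases. A first wave of targets, among them IRF1, is induced through GAS elements in their promoters, and IRF1 in turn binds ISRE elements in a later wave of targets. The guanylate-binding proteins (GBPs) and immunity-related GTPases (IRGs) attack the vacuoles of intracellular microbes, IDO1 degrades tryptophan, and SOCS1 shuts off JAK signalling. In inflamed intestine this response is seen in epithelial cells as well as in immune cells.

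The promoter letters show which members carry the usual elements near their start. A window of 250 bases before to 50 after a start site was found for 6 of the 8 members (8 windows, RefSeq, GRCm38.p6). An ISRE-like motif, GAAANNGAAA on either strand, was found in a window of Gbp2, Gbp3, Igtp, Irgm1 and Socs1. Of all 32851 windows 3.44% held it, and of 27025 genes 3.99% had it in a window. A GAS-like motif, TTCNNNGAA, which reads the same on both strands, was found in Igtp and Irf1, in 8.3% of all windows and in 9.55% of genes. Both occurred together in Igtp and in 0.454% of all windows. The stretches below run from 100 bases before to 20 after the start, 5′ to 3′ on the gene's strand, with the motifs in capitals. They lie at chr3:142620563-142620682 and chr3:142559944-142560063 (+ strand), chr11:58199456-58199575 (+), chr11:48871401-48871520 (- strand), chr16:10785517-10785636 (-) and chr11:53769914-53770033 (+).
Gbp2: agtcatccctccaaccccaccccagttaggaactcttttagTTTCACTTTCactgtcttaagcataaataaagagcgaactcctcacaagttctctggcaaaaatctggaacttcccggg
Gbp3: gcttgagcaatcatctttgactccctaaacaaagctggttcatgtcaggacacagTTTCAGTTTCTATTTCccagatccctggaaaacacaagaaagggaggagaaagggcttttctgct
Igtp: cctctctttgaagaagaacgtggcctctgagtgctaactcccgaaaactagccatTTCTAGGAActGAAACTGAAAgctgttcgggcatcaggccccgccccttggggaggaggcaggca
Irgm1: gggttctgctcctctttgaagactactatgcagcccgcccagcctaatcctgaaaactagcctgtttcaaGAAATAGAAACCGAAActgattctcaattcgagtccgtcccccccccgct
Socs1: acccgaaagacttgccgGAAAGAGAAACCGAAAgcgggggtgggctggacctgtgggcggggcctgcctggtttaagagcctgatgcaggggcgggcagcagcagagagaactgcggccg
Irf1: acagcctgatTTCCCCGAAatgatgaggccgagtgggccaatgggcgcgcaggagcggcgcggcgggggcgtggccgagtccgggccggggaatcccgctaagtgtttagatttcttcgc
In Gbp3, Irgm1 and Socs1 the capitals are 2 ISRE-like matches that overlap. In Igtp the GAS-like match starts 45 and the ISRE-like match 34 bases before the start. A second window of Gbp3 and of Irf1 held no match. A match describes letters and not a bound site.

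On all 24 arrays 6 members were detected, Socs1 on 12 and Iigp1 on 0. Detection means a score above 0.99, the score being the share of negative controls that a probe exceeds. Values are quantile-normalised log2 intensities, and each gene is given by its brightest probe. The share of all probes detected per array was 21.2% to 37.0%, lowest in HL 2A, LL 3B and LH 6A, and mean raw intensity was 245 to 637. The number of arrays limits the precision. In whole tissue, fewer expressing cells and less RNA per cell cannot be told apart.

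Gbp2, a guanylate-binding protein, had a lowest, median and highest value of 10.34, 11.54 and 11.72 in HH mice, 10.86, 11.16 and 11.92 in HL, 10.52, 11.15 and 11.87 in LH, and 10.58, 11.21 and 11.60 in LL mice. Gbp3, its neighbour on chromosome 3, was at 9.19, 10.33 and 10.68 in HH, 9.45, 9.87 and 10.45 in HL, 9.14, 10.01 and 10.42 in LH, and 9.33, 9.82 and 10.63 in LL mice. The 4 groups overlapped over most of their range for both genes. Each gene varied more across the mice than most: the SD over 24 mice was 0.44 for Gbp2 and 0.48 for Gbp3, against a median of 0.27 for the 5547 genes detected on all arrays.

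Igtp, an IRG protein (Irgm3), was at 10.61, 11.82 and 12.38 in HH, 10.95, 11.72 and 12.21 in HL, 10.94, 11.74 and 12.08 in LH, and 11.01, 11.45 and 11.99 in LL mice. Irgm1, a regulatory IRG protein, was at 12.56, 13.10 and 13.20 in HH, 12.63, 13.17 and 13.73 in HL, 12.81, 12.94 and 13.32 in LH, and 12.79, 13.18 and 13.62 in LL mice. The groups overlapped for both. The mouse HH 10B was lowest of all 24 for Gbp2, Igtp, Irgm1 and Ido1. The 4 probes of Iigp1, an IRG effector GTPase, were detected on 0 arrays, with values of 6.88 to 7.29, inside the range of undetected probes, whose median was 7.09. No level of Iigp1 can be read from these probes.

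Ido1, the enzyme that opens the kynurenine pathway of tryptophan, had the widest range of the members. It was at 11.80, 13.80 and 14.18 in HH, 12.39, 13.20 and 14.12 in HL, 12.71, 13.60 and 13.89 in LH, and 13.03, 13.59 and 14.17 in LL mice. The SD over 24 mice was 0.63, above that of 98.5% of the genes detected on all arrays. The 2 lowest values belonged to HH 10B and HL 10B, which share a mother's label.

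Irf1, the transcription factor of the second wave, was at 13.01, 13.41 and 13.59 in HH, 12.76, 13.45 and 13.66 in HL, 12.87, 13.08 and 13.66 in LH, and 13.10, 13.29 and 13.64 in LL mice. Socs1, the inhibitor, was near background at 7.10, 7.34 and 7.61 in HH, 7.18, 7.43 and 7.88 in HL, 6.97, 7.26 and 7.41 in LH, and 7.17, 7.44 and 8.02 in LL mice. Socs1 was detected on 3, 4, 1 and 4 of 6 arrays in the same order. The groups overlapped for both genes, as the plot of the members by diet group shows.

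**Figure D1:**
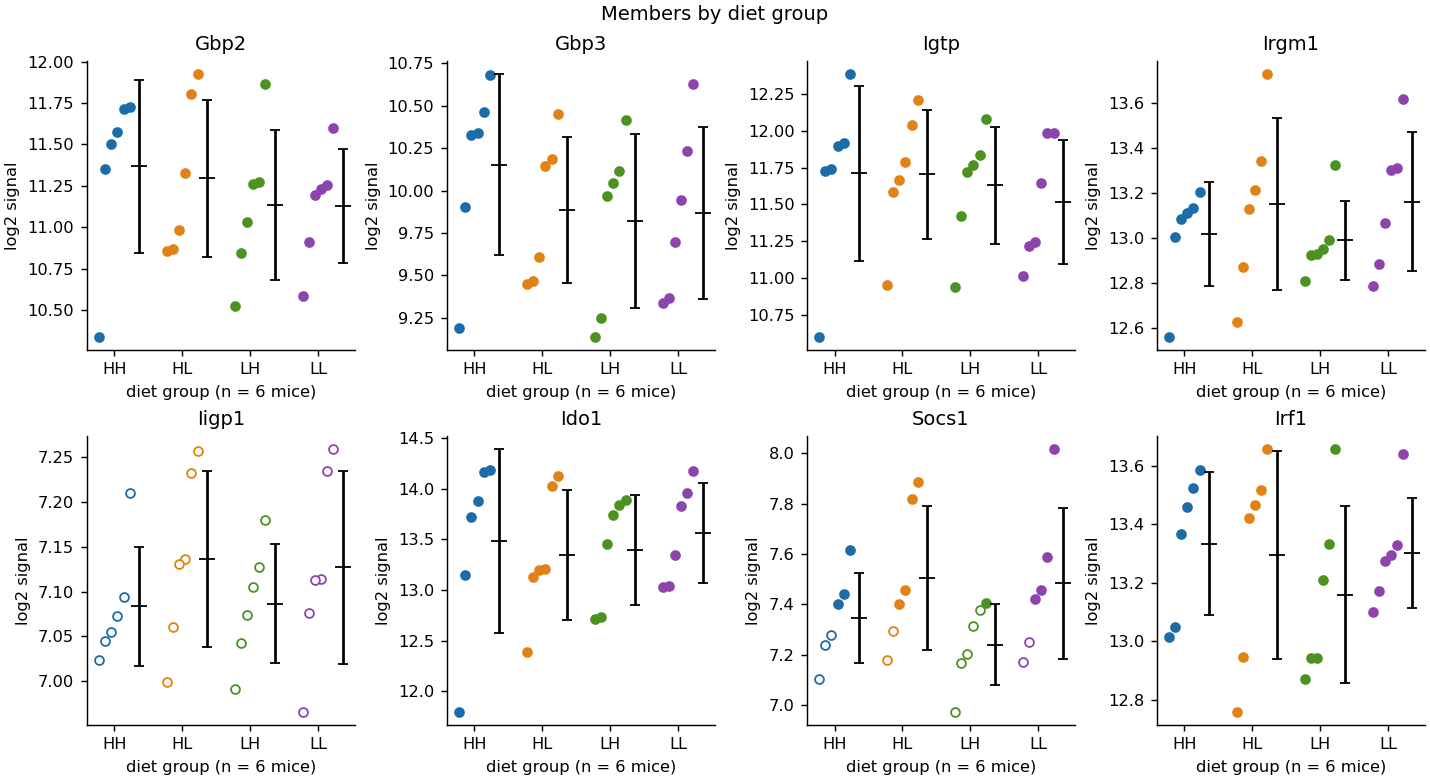
Log2 signal of the brightest probe of each member (y axis) by diet group (x axis, 6 mice each); filled points are detected and open points are not, and bars are mean ± SD. The groups overlap in every panel, and no Iigp1 value is detected.

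The first question was whether either diet moved these genes. No member passed the test. With limma, 0 of 8 members passed an adjusted p under 0.05 for the post-weaning diet, the pre-weaning diet, their interaction or the 4 groups together, beside 0% of the 31298, 31308, 37654 and 37654 probes tested (smallest adjusted p among the members 0.944, 0.999, 1 and 0.998). At an unadjusted p under 0.05 there was 1 of 8 for the post-weaning diet, Socs1, beside 4.22% of all probes. There were 0 of 8 for the pre-weaning diet beside 2.71%, 0 for the interaction beside 2.94% and 0 for the 4 groups beside 2.47%.

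Gbp2 was at 11.25 ± 0.48 in mice on the high post-weaning diet and 11.21 ± 0.40 on the low one (SD, n = 12 each). The log2 difference was 0.04, with a 95% interval of -0.32 to 0.40 (limma, adjusted p = 0.986). Ido1 was at 13.44 ± 0.71 and 13.45 ± 0.56 (SD, n = 12 each), a difference of -0.016 with an interval of -0.55 to 0.52.
The level of Socs1 averaged 7.29 ± 0.17 with high and 7.49 ± 0.28 with low vitamin D after weaning (SD, n = 12 for both). The difference was -0.20 (interval -0.40 to -0.0073; limma, unadjusted p = 0.0426, adjusted p = 0.944). Its direction held with each of the 24 mice left out in turn, and the unadjusted p stayed under 0.05 in 14 of them. It did not stay under 0.05 under median scaling, where the difference was -0.12, or with the share of detected probes in the fit, where it was -0.18, and with neqc the difference was -0.57. The highest Socs1 values were those of LL 3B and HL 2A, both on the low post-weaning diet. These arrays also had the lowest shares of detected probes (21.9% and 21.2%). Irgm1 had a difference of -0.15 (interval -0.38 to 0.076), and Gbp3, Igtp, Iigp1 and Irf1 had differences of 0.11, 0.06, -0.05 and -0.05.

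For the pre-weaning diet, the difference of Gbp2 was 0.20, of Gbp3 0.17 and of Igtp 0.14. They were 0.41, 0.38 and 0.34 under median scaling, and 0.090, 0.060 and 0.045 with the share of detected probes in the fit. Of the 8 members 7 had positive differences, with a median of 0.074, beside a median of 0.002 over the 14951 other genes. None of the 8 passed. For the interaction, the intervals reached from -0.76 to 1.37 for Ido1. The members vary together, as shown further on, so their signs are not separate pieces of evidence.

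**Figure D2:**
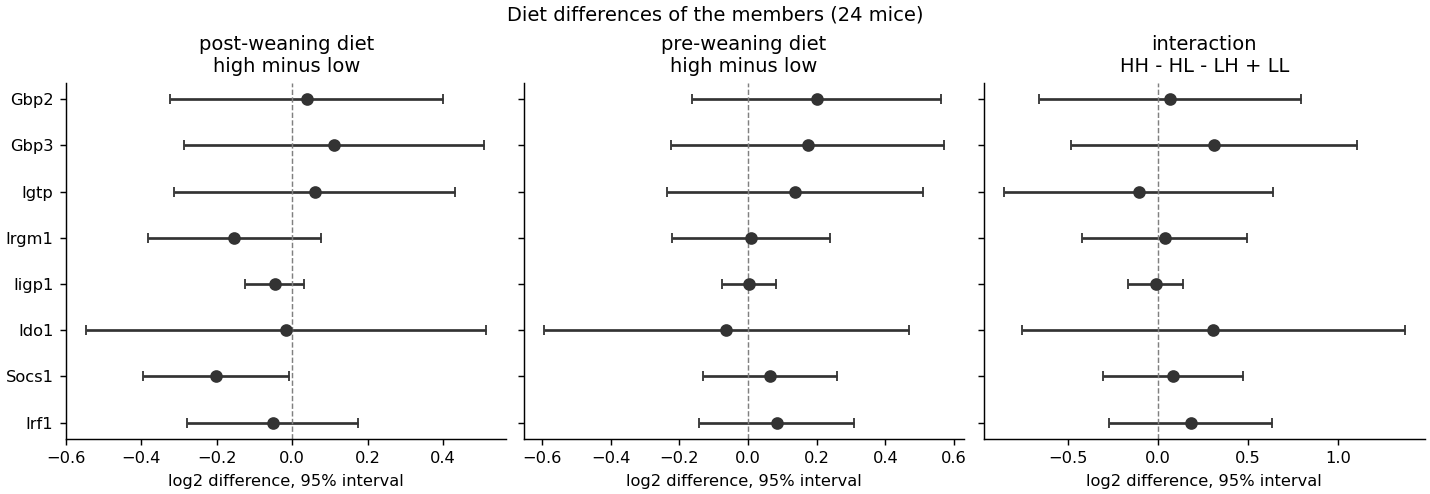
Log2 difference of each member (points) with its 95% interval from limma (bars) for the post-weaning diet, the pre-weaning diet and their interaction, over 24 mice. Every interval except that of Socs1 for the post-weaning diet includes 0.

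The pairs of mice with a shared mother's label gave the post-weaning comparison within a mother. Socs1 and Irgm1 were lower on the high diet in 4 of 4 pairs, by -0.81 to -0.077 for Socs1 and -0.69 to -0.0069 for Irgm1. In the pairs of 10B (7.10 and 7.18) and 13 (6.97 and 7.25), both Socs1 values lay below 7.315, the 95th percentile of undetected values. The Socs1 difference of -0.81 was that of label 3B. For Irgm1 the direction held for the brightest probe only. A probe detected on 24 arrays was higher in 2 of 4 pairs, and one detected on 14 was higher in 4 of 4, by 0.132 to 0.567 (difference over all mice 0.19, unadjusted p = 0.035, limma, adjusted p = 0.944). By their brightest probes, Gbp2, Gbp3, Igtp, Ido1 and Irf1 were higher in 2 of 4 pairs each, with differences of -0.63 to 0.70 for Ido1. Other Irf1 probes detected on 24 arrays were higher in 4 of 4 pairs, by 0.067 to 1.795 and 0.122 to 1.311, or in 3 of 4. Over all mice the differences of the first 2 were 0.18 and 0.10 (limma, adjusted p = 0.944 and 0.953). A Gbp2 probe detected on 20 arrays was higher in 3 of 4 pairs. With 4 pairs an exact test of signs cannot reach the threshold, and none was made.

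The next question was whether the members followed Ifng itself. Ifng is read by 2 dim probes. The brighter was detected on 16 arrays, at 7.16 to 7.75, and the dimmer on 12, at 7.01 to 7.74. Across the 24 mice they correlated with r = 0.63 (permutation p = 0.001) and rho = 0.65 (permutation p = 0.00082), and r was 0.62 without the 2 mice farthest from the median, HH 10B and HL 10.

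Against the brighter probe, all 8 members had positive slopes with the group means in the fit, with a median of 1.05 beside -0.0073 over 16939 other genes. Of the 8 members 0 passed limma's adjusted p, beside 0.00531% of all probes (2 of 37652). At an unadjusted p under 0.05 there were 5 (Ido1, Igtp, Gbp3, Irgm1 and Gbp2), beside 7.34% of all probes. The slope of Ido1 was 2.60 (SE 0.77, adjusted p = 0.325) and that of Igtp 1.75 (adjusted p = 0.383). Igtp had r = 0.55 (permutation p = 0.0049) and rho = 0.53 (permutation p = 0.00787), and Ido1 had r = 0.54 (permutation p = 0.007) and rho = 0.51 (permutation p = 0.0112). Without HH 10B and HL 10, r was 0.43 and 0.48. With HH 10B alone left out, 0 of 8 members stayed at an unadjusted p under 0.05, the slope of Gbp2 went from 1.27 to 0.48 and that of Ido1 from 2.60 to 1.55, and 7 of 8 slopes were positive. Socs1 had r = 0.10 and Irf1 r = 0.19.

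Against the dimmer probe r was larger for Ido1, Igtp, Gbp3, Gbp2 and Irf1 and smaller for Irgm1 and Socs1, a difference that was not tested. Of the 8 members 5 passed limma's adjusted p: Ido1 (slope 2.88, SE 0.44, adjusted p = 0.00555), Gbp2 (1.85, adjusted p = 0.014), Gbp3 (1.98, adjusted p = 0.0176), Irf1 (1.04, adjusted p = 0.0428) and Igtp (1.72, adjusted p = 0.0441). Over all probes 0.374% passed with a positive slope. Ido1 had r = 0.79 (permutation p = 1e-05, the smallest that 100000 permutations can give) and rho = 0.81, and r = 0.74 without HH 11A and HL 10B. Within the groups, as deviations from their means, r was 0.81 for Ido1, 0.77 for Gbp2 and 0.69 for Igtp. The brightest probes of Irgm1, Socs1 and Iigp1 had r = 0.22, 0.03 and -0.18 and did not pass. Another probe of Irgm1, detected on 24 arrays, did pass (slope 2.03, adjusted p = 0.00416) with r = 0.81 (permutation p = 1e-05) and rho = 0.84. For Irf1 the relation was that of its brightest probe. Its other probes had r of 0.06 to 0.47, and of -0.32 to -0.04 once the share of detected probes was removed.

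The mouse HH 10B decided the calls of Gbp2, Gbp3 and Ido1, while those of Igtp and Irf1 were also lost without other mice. Without HH 10B 0 of 8 members passed and 4 probes of the whole table did, while the slope of Gbp2 remained 1.59 or more with any mouse left out. Without HH 10B r was 0.76 for Ido1, 0.71 for Gbp2, 0.74 for Gbp3, 0.59 for Igtp and 0.67 for Irf1. With HL 10B left out 3 members passed, and 78 probes of the whole table. Gbp2, Gbp3 and Ido1 each passed with 23 of the 24 mice left out in turn, Irf1 with 10 and Igtp with 8. With the share of detected probes in the fit 2 members passed, Irgm1 and Ido1 (adjusted p = 0.0344 and 0.0173), beside 327 of all 37652 probes. With the mean of both Ifng probes as the x axis Ido1 alone passed (adjusted p = 0.0287), beside 78 of 37652. The dimmer probe itself rose with the share of detected probes (r = 0.57, permutation p = 0.00366; limma, adjusted p = 0.045) and the brighter did not pass (r = 0.19; adjusted p = 0.535).

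**Figure D3:**
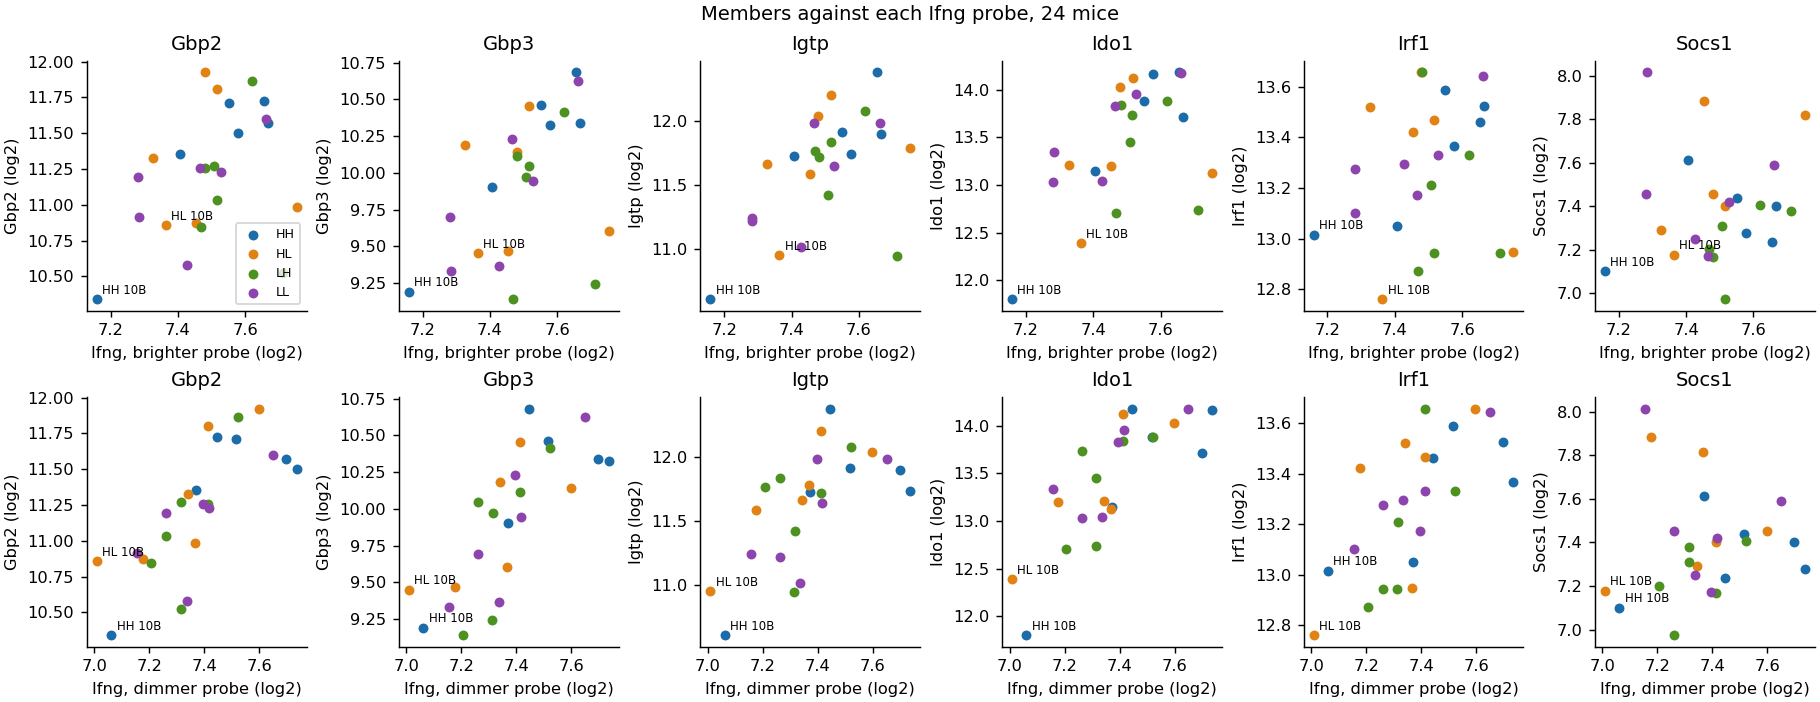
Log2 signal of 6 members (y axes) against the brighter (top row) and dimmer (bottom row) Ifng probe (x axes), 24 mice colored by diet group, with HH 10B and HL 10B named. In the bottom row r is 0.79 for Ido1 and 0.03 for Socs1.

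The members also varied together. Among Gbp2, Gbp3, Igtp, Ido1 and Irf1, Pearson's r over 24 mice was 0.53 to 0.90 and Spearman's rho 0.50 to 0.90 in the 10 pairs. Gbp2 and Gbp3 had r = 0.90 (permutation p = 1e-05) and rho = 0.90, and r = 0.87 without HH 10B and LH 6A. Gbp2 and Ido1 had r = 0.83 (permutation p = 1e-05) and rho = 0.83. The weakest of these pairs was Igtp and Irf1, with r = 0.53 (permutation p = 0.00816). In all 28 pairs of members were computed, and the 18 with Irgm1, Iigp1 or Socs1 had r of -0.13 to 0.57.

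With Gbp2 as the x axis, a choice made after the values were seen, Gbp3, Igtp, Ido1 and Irf1 passed limma's adjusted p (slopes 0.99, 0.87, 1.28 and 0.42; adjusted p = 5.62e-05, 0.000947, 0.000328 and 0.0336). Of all probes 1.06% passed with a positive slope. The other probes of Irf1 did not pass (limma, adjusted p = 0.0733 to 0.554), while those of Gbp3 and Irgm1 did. With any mouse left out 3 or 4 members passed, Gbp3, Igtp and Ido1 in all 24 fits and Irf1 in 19 (not without HH 9, HL 8, HL 14A, LH 6A or LL 12). The background depended on single mice. Of all probes 605 passed in either direction, 1812 without HH 10B and 222 without HL 8, and 235 to 392 without HH 5A, HH 11A, HL 2A, HL 14A, LH 6A, LH 15, LL 12 or LL 13. The share of detected probes moved with these genes: r was 0.68 for Gbp2, 0.67 for Gbp3, 0.54 for Igtp and 0.46 for Ido1 and Irf1. Gbp2, Gbp3 and Igtp passed limma's test of that relation, and so did 22.4% of all probes. With that share in the fit, Gbp3 and Ido1 passed (adjusted p = 0.00706 and 0.0026), Igtp was at 0.0517 and Irf1 at 0.279, and 0.0292% of all probes passed with a positive slope. After removing the share, r in the 10 pairs was 0.37 to 0.83, and in the 18 pairs with Irgm1, Iigp1 or Socs1 -0.06 to 0.60. The brightest probe of Irgm1 then had r of 0.48 to 0.60 with the 5 genes, and Socs1 0.20 to 0.50. These ranges overlap that of the 10 pairs.

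**Figure D4:**
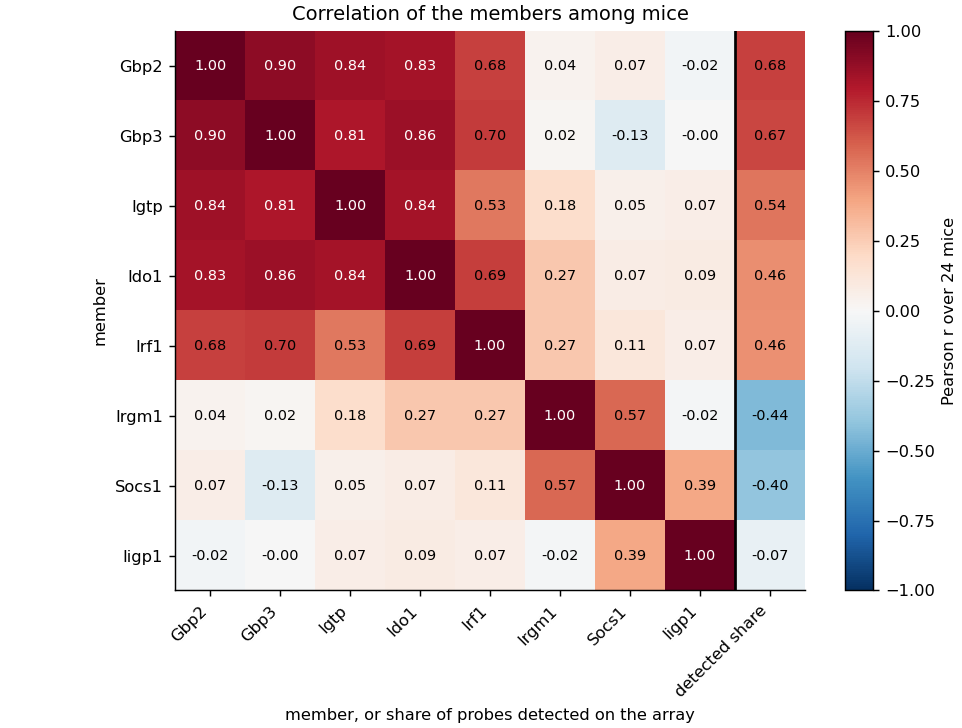
Pearson r over 24 mice between members and, in the last column, with the share of probes detected on the array. Gbp2, Gbp3, Igtp, Ido1 and Irf1, grouped by these same r values, form a block with r of 0.53 to 0.90. The brightest probes of Irgm1, Socs1 and Iigp1 stand outside it before that share is removed.

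Before the share of detected probes was removed, Irgm1 stood outside the block by its brightest probe and inside it by another. The brightest probe had r = 0.04 with Gbp2 (permutation p = 0.856), and a second probe, also detected on 24 arrays at 9.50 to 11.00, had r = 0.90 (permutation p = 1e-05). The 2 probes correlated with each other with r = 0.16, and with r = 0.67 once the share of detected probes was removed. The brightest had r = -0.44 with that share (permutation p = 0.0298) but rho = -0.24 (permutation p = 0.263), and did not pass limma's test of that relation (adjusted p = 0.0913). For Gbp3 the 2 probes had r = 0.92, and for Irf1 the 4 other probes had r of 0.14 to 0.31 with the brightest.

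By mouse, HH 5, HL 8, HL 14A, LH 15 and LL 12 were high for most genes of the block, and HH 10B, HL 10B, LH 6A, LH 3B and LL 13 were low for most. High and low mice occurred in every diet group. HH 10B lay 1.65 below the mean of 24 mice for Ido1, at 11.80 against 13.45, and 0.89 below it for Gbp2.

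**Figure D5:**
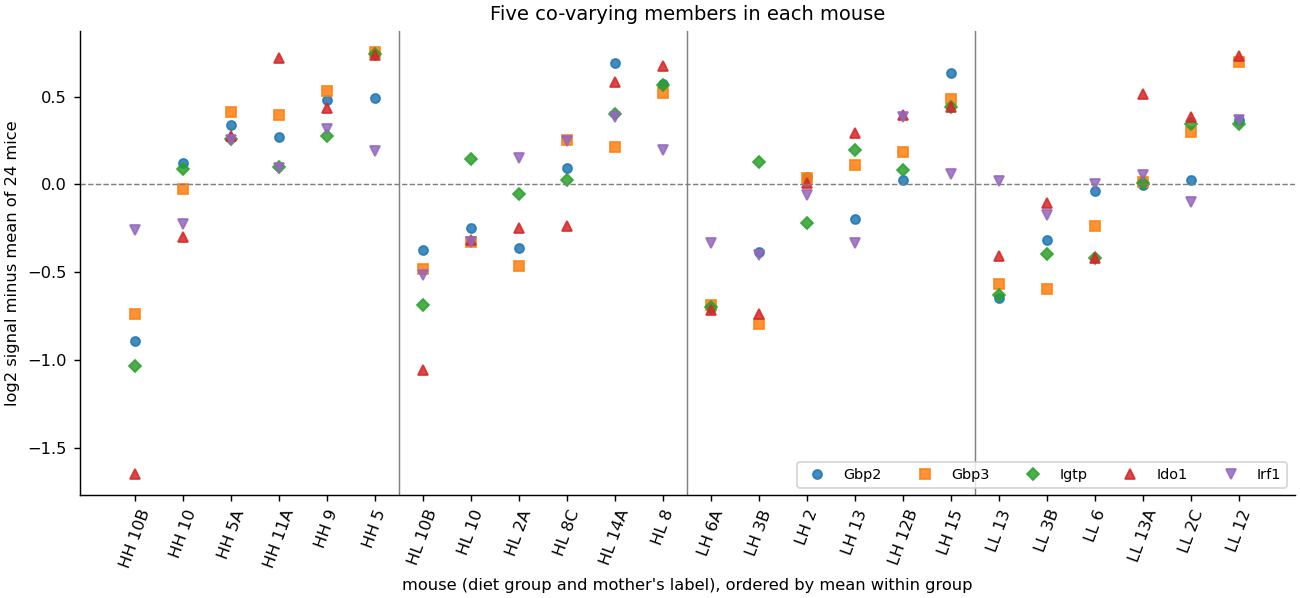
Log2 signal minus the mean of 24 mice (y axis) for Gbp2, Gbp3, Igtp, Ido1 and Irf1 in each mouse (x axis, ordered within diet group). High and low mice occur in all 4 groups, and HH 10B is the lowest for Gbp2, Igtp and Ido1, at 11.80 for Ido1.

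Other genes of the pathway were read from lists. Of the other GBP and IRG genes 11 of 14 on the array were tested, and against the dimmer Ifng probe 4 passed limma's adjusted p, all positive: Gbp5 (slope 1.08, adjusted p = 0.00416), Gbp2b (2.55, adjusted p = 0.00454), Gvin1 (1.66) and Irgm2 (1.53). Of 27 other IFN-γ induced effectors 6 passed: Cd274, which encodes the checkpoint ligand PD-L1 (slope 2.21), Wars, the tryptophanyl-tRNA synthetase (adjusted p = 0.0091), the immunoproteasome subunit Psmb8 (1.98), the peptide transporter Tap2 (1.71), the adhesion molecule Icam1 (1.43) and the chemokine Cxcl9 (2.59). Among the 11 genes of the receptor and its signalling 0 passed. Of them 2 were at an unadjusted p under 0.05, beside 2643 of the 16939 other genes. Of 16 antiviral type I interferon genes 1 passed, Ifit2 (2.97). Over all other genes 100 passed with a positive and 51 with a negative slope, of 16939. Against the brighter probe 0 genes of these lists passed. Of the 27 effectors 14 were at an unadjusted p under 0.05, beside 1461 of the 16939 other genes. By either diet 0 genes of any list passed.

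The mean of the 8 detected GBP and IRG genes outside the members followed Gbp2 (r = 0.87, rho = 0.87, permutation p = 1e-05 for both, adjusted p = 0.00011 over 77 such values) and Ido1 (r = 0.91). It was lowest in HH 10B at 8.71 and highest in LL 12 at 9.85. The mean of 25 effectors had r = 0.74 with Gbp2 and 0.83 with Ido1. The mean of 11 antiviral type I interferon genes had r = 0.73 and 0.76 (permutation p = 3e-05 for both, adjusted p = 0.00019), so the covariation was not particular to the IFN-γ lists. Once the share of detected probes was removed, r with Gbp2 was 0.61 for the effectors and 0.70 for the antiviral genes. With Ido1 it was 0.78 and 0.72.

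Markers of cell types moved with the block in part. The mean of the 8 macrophage and neutrophil markers detected had r = 0.52 with Ido1 (permutation p = 0.0107, adjusted p = 0.0294) but rho = 0.28 (permutation p = 0.181, adjusted p = 0.29), and r = 0.27 with Gbp2. It lay between 9.39 and 10.79 in HH mice, between 8.82 and 10.51 in HL, between 10.12 and 10.95 in LH and between 9.41 and 10.81 in LL, lowest in HL 10B. The mean of 10 T and NK cell genes had r = 0.13 with Ido1 and -0.17 with Gbp2. Of 8 exocrine pancreas genes on the array 1 was detected on at least 12 arrays, Cela1, and it had r = -0.66 with Gbp2 (permutation p = 0.00057, adjusted p = 0.00258). Cela1 does not stand for the list: slopes on Gbp2 were positive for 5 of the 8 and negative for 3. Slopes on the dimmer Ifng probe were positive for 7. Cela1 lay between 8.92 and 10.75 in HH mice, between 8.89 and 11.06 in HL, between 9.06 and 10.88 in LH and between 9.57 and 10.60 in LL. The mean of 9 smooth muscle markers had r = -0.45 with Ido1 and rho = -0.09. Markers also moved with Ifng. Against the brighter probe 10 of 11 macrophage and neutrophil markers had positive slopes (median 1.82, 7 at an unadjusted p under 0.05). Of 10 smooth muscle markers 10 had negative ones (median -1.07, 6 at an unadjusted p under 0.05). Of the T and NK cell genes 15 of 18 were positive (7 at an unadjusted p under 0.05). Of the colonocyte and epithelial markers 14 of 17 were negative (5 at an unadjusted p under 0.05). Over all other genes 1461 of 16939 were under 0.05, and 0 genes of these lists passed. Against the dimmer probe 10 of 11 macrophage and neutrophil markers were positive (median 0.78) and 8 of 10 smooth muscle markers negative (median -0.68). Of the T and NK cell genes 12 of 18 were positive, and of the colonocyte and epithelial markers 11 of 17 negative. In these lists 1 gene passed, Tagln, a smooth muscle gene (slope -1.75, adjusted p = 0.00646). The mean of the macrophage and neutrophil markers had r = 0.53 with the dimmer probe (permutation p = 0.00703, adjusted p = 0.0211) and rho = 0.38 (permutation p = 0.069, adjusted p = 0.133). The means of 10 T and NK cell genes and 15 colonocyte and epithelial markers had r = 0.27 and -0.30 with it (permutation p = 0.198 and 0.148). Once the share of detected probes was removed, r was 0.66 and -0.73. The part of these cells in the result was not tested.

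The genes most like the members were sought among 8893 genes detected on at least 12 arrays, by Pearson's r over 24 mice to the mean z-score of the 7 members detected on at least 12. The 10 highest were Irgm2 (r = 0.92), Gbp2b (0.91), Cd274 (0.86), Tgm2 (0.85), Eif4e3 (0.84), Gvin1 (0.84), Cxcl9 (0.81), Wars (0.80), Mlkl (0.80) and Evi2a (0.79). Irgm2 and Gbp2b are GTPases of the same families, Tgm2 encodes a transglutaminase and Mlkl the effector of necroptosis. The 5 lowest were Tmed3 (-0.81), Ang (-0.76), Pyy (-0.76), Sycn (-0.76) and Gas6 (-0.76). Pyy encodes the hormone peptide YY of colonic endocrine cells and Sycn a protein of pancreatic secretory granules. These r were picked as extremes and carry no test.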

How the data were processed

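Each of 24 mice was hybridised to its own Illumina MouseWG-6 v2 array. The authors deposited, per the file headers, the raw bead signal intensity and an Illumina detection score for each probe, and log2 values that the authors had quantile normalised. Quantile normalisation of the intensities was repeated here, and its largest departure from the deposited values was 0.000415. The scanner software and the chip that held each array are not given in the sources used here. Probes took their gene from the platform annotation (34885 with 1 symbol, 18 with several, 10378 with none). Groups came from the sample titles.

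Differences were fitted with limma 3.58.1 in R 4.3.3, with 1 mean per group and Benjamini-Hochberg adjustment over all probes tested. Probes had to exceed the 20th percentile of an array in 80% of the arrays of at least 1 group compared. Relations to Ifng were limma slopes with the 4 group means, with r and rho (NumPy 2.4.6, SciPy 1.17.1, two-sided permutation tests, 100000 permutations). The fits were tested on simulated data. Members and lists were chosen with earlier results of these data known. Named genes were the members on every probe, Ifng, up to 4 genes per list by smallest p and any that passed, the 10 most and 5 least like genes, and the 10 probes closest to Ifng. The Gbp2 axis, the group of 5 members that vary together, the settings of the dimmer Ifng probe and the covariate in the diet differences were chosen after seeing the data. Mice with a shared mother's label were paired by the labels: their deviations from the group means correlated with r = 0.40, 0.61, 0.0044 and -0.15, and the label was tried as a random block. Whether mice of a group are litter mates is otherwise not stated. Alternatives were neqc, median scaling, other filters, every probe, the replicate block, the detected share, the methods' t-test and each mouse left out.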

Additional observations from a re-analysis of the deposited data

Results flagged for a closer look

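In 40 sets of 6 mice (8 members and both Ifng probes in 4 groups), 4 values stood apart from their group by Dixon's ratio, above 0.625. Chance marks about 1 in 20 such sets. In HH mice, HH 10B was lowest for Gbp2, at 10.34 against 11.35 for the next mouse (ratio 0.733). It was also lowest for Igtp, at 10.61 against 11.73 (0.631), and for Irgm1, at 12.56 against 13.00 (0.689). In LH mice, LH 6A was highest for Irgm1, at 13.32 against 12.99 (0.647). The 3 values of HH 10B come from 1 mouse and are not separate.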

How the results depend on the processing

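No member passed for either diet, the interaction or the 4 groups under any alternative run: neqc, median scaling, renewed quantile normalisation, no filter, probes detected on at least 6 arrays, every probe, the replicate block, the detected share, the methods' t-test and each mouse left out (0 to 0 members). For the relation to Ifng, 0 members passed under the replicate block, in which mice with 1 mother's label were paired as a random block, and with each mouse left out (0 to 0). Exceptions were median scaling, with 6 members, and the other Ifng probe, with 5. Under median scaling 13338 of 37652 probes passed, against 2, and the median slope of all probes was 0.11. The number of probes passing was 8 with neqc, 30 among probes detected on at least 6 arrays, 151 with the detected share, and 0 with permutation p-values of r or rho. For the dimmer probe it was 204, and 144 with the replicate block, where 3 members passed. Directions of small differences turned: Gbp2 by post-weaning diet to -0.033 with the detected share (chosen after seeing the data), and under median scaling Ido1 to 0.015 by post-weaning and 0.038 by pre-weaning diet, Iigp1 to -0.0013 by pre-weaning diet and the Iigp1 slope to -0.026. With 1 mouse left out in turn, the post-weaning difference turned for Gbp2 in 4, Igtp in 2 and Ido1 in 9 of 24 fits, the pre-weaning one for Irgm1 in 9, Iigp1 in 7 and Ido1 in 2, the interaction for Gbp2 in 6, Irgm1 and Iigp1 in 4 each and Igtp and Socs1 in 1 each, and the Ifng slope for Iigp1 in 11. The cause was not tested. Signals of Ifng, Socs1 and Iigp1 near background limit what can be read from them.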

Other observations

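The 10 probes with the smallest p for the slope on the brighter Ifng probe belonged to Calhm6 (slope 2.87), Acod1 (1.67), Selplg (2.40), Tgtp1 (1.30), Serping1 (2 probes, 1.32 and 1.40), A430093F15Rik (0.86), Ctsw (2.45), Clec4a3 (1.78) and a probe with no symbol here. Calhm6 and Acod1 passed limma's adjusted p (0.0333 for both). Acod1 encodes the itaconate-forming enzyme of activated macrophages, Selplg the selectin ligand PSGL-1 of leukocytes and Ctsw a cathepsin of cytotoxic lymphocytes. None of the 8 members was among them. For the dimmer Ifng probe the corresponding 10 probes included 1 of Irgm1, not its brightest, and that of Ido1 (limma, adjusted p = 0.00416 and 0.00555).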
